A study of Mus musculus with 3 samples.

Results

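The genes described here encode 9 coactivators and corepressors that estrogen receptor α (ERα) works with, and the data are the ERα peaks that lay at these genes in mouse mammary gland. A peak was assigned to a gene when its midpoint was within 100 kb of any annotated transcription start site (TSS) of the gene, or inside the gene body, in the mouse assembly mm9. By this rule the 9 genes had 28 of the 9607 peaks of replicate 1 and 22 of the 6819 peaks of replicate 2. Peaks of the replicates that overlapped by at least 1 bp were called shared, and the interval covered by both was called a shared region. Of 6250 shared regions, 19 were at the 9 genes, and 6243 were on assembled chromosomes and served as the background for sequence and position.

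ERα binding was measured by chromatin immunoprecipitation and sequencing (ChIP-seq) in wild-type (WT) mice, labelled BALB/c and given as BALB/cJ in the study's methods. Their ovaries were removed at an age of 6 weeks, and after 10 days of rest each mouse received 100 ng of 17β-estradiol by injection and the glands were taken 2 h later. The 2 ChIP replicates were each made from #4 mammary glands pooled from several mice, with the ERα antibody sc-542, and 1 input DNA library from glands of the same treatment served as the reference for peak calling. No vehicle-treated ChIP library was analysed here, so the values are of binding in the presence of estradiol, and how estradiol changed it was not measured. Peaks came from whole gland, and since peak lists carry no expression values, the tissue label was not checked against marker genes. Each peak has a score, the negative log10 of its p-value against the input multiplied by 10, and both lists end at a p-value of 1e-08, a score of 80. With 2 replicates and 1 group, no p-value was computed. Intervals on shares are exact (Clopper-Pearson) 95% intervals and cover counting error only.

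Coregulators are proteins that liganded or unliganded nuclear receptors bring to DNA. Coactivators of the p160 family dock on the receptor bound to hormone and bring in the acetyltransferases CBP and p300, which acetylate histones, whereas corepressors such as NCoR recruit histone deacetylases. The product of Nrip1, nuclear receptor interacting protein, binds hormone-loaded receptors and limits their activity, and is itself known as an estrogen target in breast cancer cells.

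The sequences that follow are from the shared regions at Nrip1 and Ncoa3 and show what the receptor's known motif looks like at these sites. Regions are named by gene and numbered by rising coordinate on the chromosome. The estrogen response element (ERE) was written as GGTCA, any 3 bases, TGACC, a sequence that reads the same on both strands. Its 13 bases were searched in 400 bp around each region midpoint, and up to 1 mismatch in the 10 fixed bases was counted as an ERE. All sequences are from the plus strand of mm9 (NCBIM37), and capitals mark the fixed bases of the ERE or the bases of another motif. The 300 bases at the centre of the highest-scoring region, Nrip1_4, are chr16:76321901-76322200, and those at the centre of the region at the Nrip1 start site, Nrip1_5, are chr16:76373678-76373977. Neither stretch overlapped an annotated exon.
Nrip1_4: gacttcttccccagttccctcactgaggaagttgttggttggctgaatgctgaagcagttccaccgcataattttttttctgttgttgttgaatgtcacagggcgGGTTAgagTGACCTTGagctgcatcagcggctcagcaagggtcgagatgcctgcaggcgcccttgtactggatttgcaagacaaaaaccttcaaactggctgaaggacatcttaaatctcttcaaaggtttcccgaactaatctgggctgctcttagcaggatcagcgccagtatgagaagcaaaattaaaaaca
Nrip1_5: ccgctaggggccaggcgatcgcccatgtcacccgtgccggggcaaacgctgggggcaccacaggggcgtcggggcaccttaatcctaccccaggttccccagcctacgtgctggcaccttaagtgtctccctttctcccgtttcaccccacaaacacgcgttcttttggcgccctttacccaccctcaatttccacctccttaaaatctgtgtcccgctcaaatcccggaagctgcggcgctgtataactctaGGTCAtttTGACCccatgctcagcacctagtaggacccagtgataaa

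In Nrip1_4 the ERE begins at position 106 of the 300 bases and carries 1 mismatch, C4T, where positions are counted from 1 at the 5′ end of the 13 bases and the consensus base comes first. A match to the SF1 motif CAAGGTCA, read on the minus strand, begins at position 114 and overlaps this ERE. In Nrip1_5 the ERE begins at position 254 and has no mismatch. The other EREs of these genes outside the Ppargc1b locus were in Nrip1_3 (29 bases at chr16:76320196-76320224, mismatch A11T) and in Ncoa3_1 (chr2:165726810-165726838, mismatch C13A). The best ERE-like 13 bases of the region with the highest replicate 1 score at Ncoa3, Ncoa3_6 (chr2:165978947-165978975), had 3 mismatches, G2T, A11C and C13A, and are shown for contrast.
Nrip1_3: gtcgaatgGGTCAgctTGTCCtcatctat
Ncoa3_1: ctagcctgGGTCAagtTGACAcaaaagac
Ncoa3_6: gacagcggGTTCAtcaTGCCAttggccaa

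AP1, the dimer of Fos and Jun proteins, binds TGAGTCA or TGACTCA, and 4 shared regions at Nrip1 and Ncoa3 held this motif: Nrip1_1 (chr16:76225475-76225503), Nrip1_2 (chr16:76243275-76243303), Ncoa3_2 (chr2:165739949-165739977) and Ncoa3_6 (chr2:165978804-165978832). None of these 4 regions had an ERE with up to 1 mismatch, which most shared regions lack: 31.1% of all shared regions had one. The 29 bases around each AP1 match were chosen for display after the matches were seen. All 4 read TGAGTCA on the plus strand, which is the same site as TGACTCA read on the minus strand.
Nrip1_1: gagttcaaagtTGAGTCAcagtctgaggt
Nrip1_2: gaccaaacaggTGAGTCAcagagggaaga
Ncoa3_2: tgggtcttgccTGAGTCAtgcccattctt
Ncoa3_6: ggggccagtctTGAGTCAgcaaactttaa

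The shared regions fell at 3 of the 9 genes: 7 at Nrip1, 6 at Ncoa3 and 6 at Ppargc1b. Of all 22350 protein-coding genes, 38.6% had at least 1 shared region in a window made the same way, and the members' share was 33.3% (95% interval 7.49 to 70.1%). Having a shared region was therefore no more frequent among the 9 genes than among genes in general. The members with any were high in the distribution, however, since 1.44% of protein-coding genes had at least 6 shared regions and 3 of the 9 did. These 9 genes were chosen with earlier results of the data known, so this count is a description. Long genes have wider windows, and the count per 100 kb of window was 2.80 for Nrip1, 2.18 for Ncoa3 and 2.97 for Ppargc1b, beside a mean of 0.35 over protein-coding genes. As many or more shared regions per 100 kb were found at 0.975%, 2.10% and 0.859% of protein-coding genes, respectively.

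**Figure D1:**
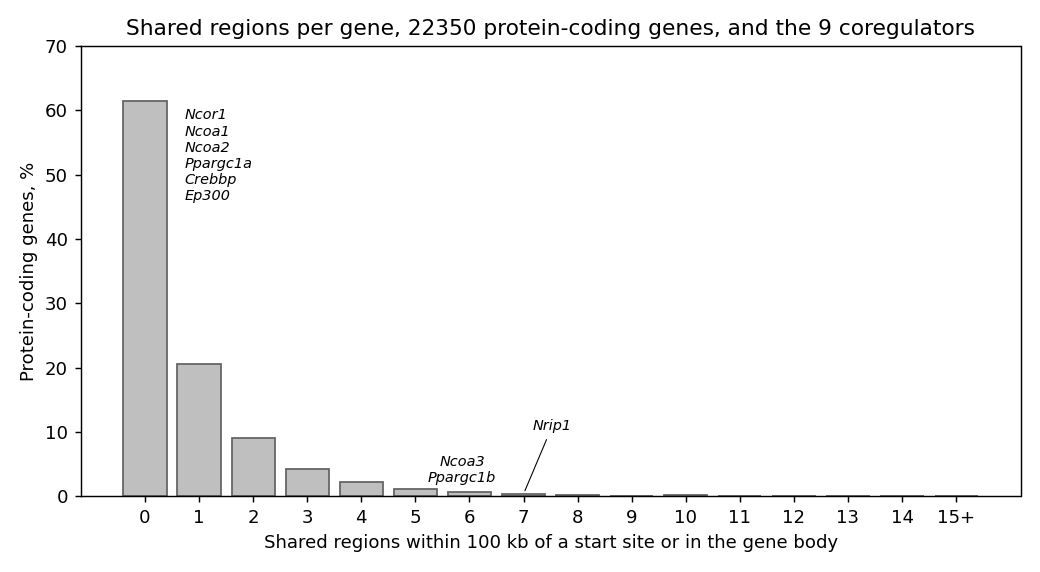
Percentage of 22350 protein-coding genes (y axis) by the number of shared ERα regions in their window (x axis), with the 9 coregulators named at their own number. The bar at 0 holds 61.4% of genes and 6 of the 9 coregulators, and Nrip1, Ncoa3 and Ppargc1b stand at 7, 6 and 6.

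In single replicates, 6 of the 9 genes had a peak in replicate 1 (50.1% of protein-coding genes did) and 3 had one in replicate 2 (40.7% did). The 3 genes with a replicate 2 peak were those with shared regions. Ncoa1, Ncoa2 and Ppargc1a had 1 peak each in replicate 1 and none in replicate 2, and Ncor1, Crebbp and Ep300 had no peak in either list. The map of peaks around the genes shows that the shared regions were spread on both sides of the start sites.

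**Figure D2:**
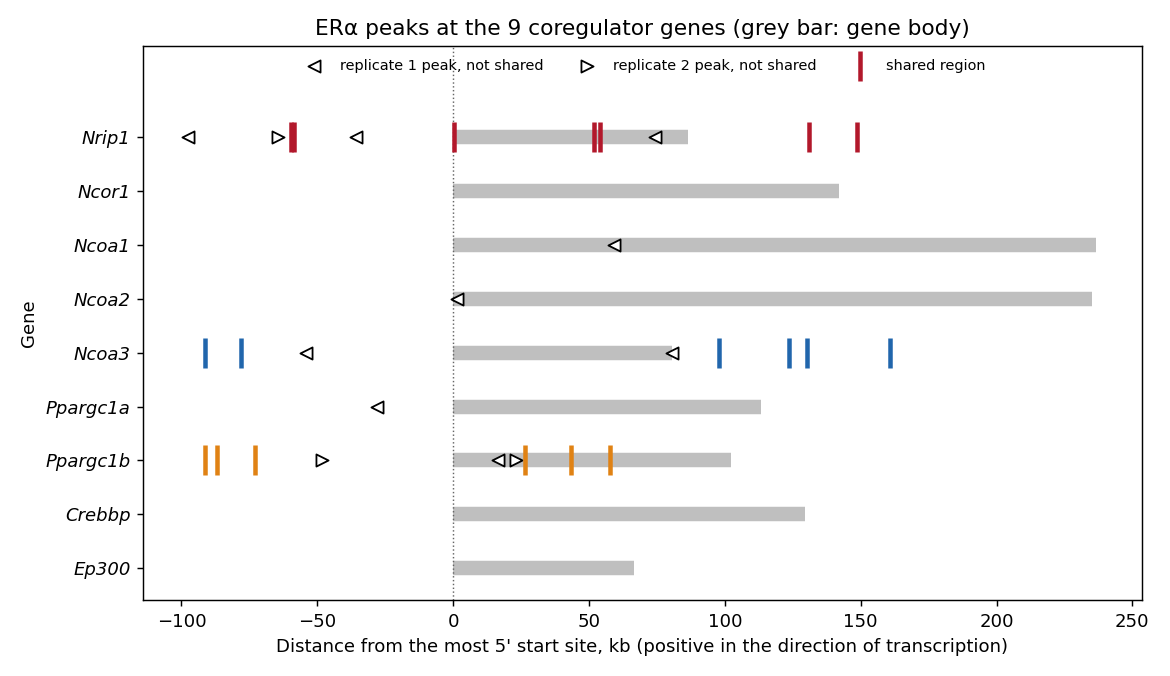
Peaks at the 9 genes by distance in kb from the most 5′ start site of each gene, positive in the direction of transcription (x axis), 1 gene a row. Coloured ticks are the 19 shared regions, open triangles the 9 peaks of replicate 1 and 3 of replicate 2 that were not shared, and grey bars the gene bodies.

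Of the corepressors, Nrip1 (ENSMUSG00000048490, chr16:76287645-76374072, minus strand) had the highest number of shared regions and the highest scores of the 9 genes. It had 10 peaks in replicate 1 and 8 in replicate 2. Nrip1_4 (chr16:76321689-76322411) lay in an intron, 1853 bp downstream of the nearest annotated Nrip1 start site and 52022 bp from the most 5′ one. Its score was 1859 in replicate 1 and 1304 in replicate 2, ranks 140 and 184 of the lists, or the top 1.46% and 2.70%. Nrip1_5 (chr16:76373340-76374315) scored 882 and 757, ranks 664 and 541, with its midpoint 245 bp downstream of the most 5′ start site. This region spans that start site at 76374072, and its perfect ERE lay at chr16:76373931-76373943, in the intron after the first exon. Nrip1_5 was the single shared region of the 9 genes in the proximal class, from 1 kb upstream to 400 bp downstream of a start site.

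Nrip1_3 (chr16:76319873-76320482) lay 1873 bp from Nrip1_4, midpoint to midpoint, in the same gene's intron, and scored 340 and 168. It was added after its values were seen, as were Nrip1_7, Nrip1_1 and Nrip1_2 below. Upstream of the gene, Nrip1_6 (chr16:76432514-76433068, scores 235 and 181) and Nrip1_7 (chr16:76433684-76434175, scores 167 and 99.0) were 1138 bp apart, at -58719 and -59857 bp from the nearest Nrip1 start site. The nearest start site of any gene to both was that of Gm9843. Nrip1_1 (chr16:76225188-76225828) and Nrip1_2 (chr16:76242994-76243516) lay beyond the 3′ end of the gene, 98395 and 80648 bp downstream of a start site. Their scores were 194 and 105 for Nrip1_1, and 146 and 130 for Nrip1_2. At Nrip1 the regions in and at the start of the gene were thus the ones with an ERE, and the 4 outside the gene body had none with up to 1 mismatch. The other genes did not share this split: the EREs of Ncoa3_1 and Ppargc1b_4 were intergenic, and the regions inside Ppargc1b had none. The share of EREs by position over all shared regions is not given here.

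The highest-scoring Nrip1 peak without a partner was a replicate 1 peak of score 184 at -97449 bp. In all, 3 replicate 1 peaks and 1 replicate 2 peak at Nrip1 were not shared. By the nearest start site of any gene, 4 of the 7 shared regions belonged to Nrip1, and 3 of the 7 were inside the gene body. Of the 9 genes, Nrip1 was the one to which any shared region was nearest. At a reach of 50 kb Nrip1 had 3 shared regions, at 200 kb it had 16, and with both lists limited to p-values of 1e-20 it had 2, Nrip1_4 and Nrip1_5.

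Ncor1 (ENSMUSG00000018501, chr11:62129928-62272043, minus strand), the corepressor that unliganded receptors use to recruit histone deacetylase, had no peak in either list in a window of 337 kb. Of 1395 protein-coding genes with a window of similar length, 50.9% had no shared region either. The shared region closest to an Ncor1 start site was at -100636 bp, just outside the window, with scores of 448 and 320. The result for this gene therefore turned on the 100 kb limit, and with a reach of 200 kb, chosen after seeing the data, 3 shared regions fell to Ncor1.

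The p160 coactivators are Ncoa1, Ncoa2 and Ncoa3, and all the shared regions of this family were at Ncoa3. Ncoa1 (ENSMUSG00000020647, chr12:4247363-4484060, minus strand) had 1 peak, in replicate 1 alone (chr12:4424747-4425144), in an intron 59115 bp downstream of a start site, with a score of 85.5 and rank 9041. Ncoa2 (ENSMUSG00000005886, chr1:13129186-13364164, minus strand) also had 1 peak in replicate 1 alone (chr1:13362607-13363119), with a score of 96.2 and rank 8051. That peak was at -343 bp from one annotated start site and inside an intron of the transcript that starts further upstream. Both scores were near the limit of 80, and neither peak had a counterpart in replicate 2. The closest shared regions were 291.3 kb from an Ncoa1 start site and 205.1 kb from an Ncoa2 start site. Of protein-coding genes with windows of similar length, 50.7% (Ncoa1) and 49.8% (Ncoa2) had no shared region.

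Ncoa3 (ENSMUSG00000027678, chr2:165818136-165898742, plus strand), the p160 gene that is amplified in some breast cancers, had 8 peaks in replicate 1, 6 in replicate 2 and 6 shared regions. None of the 6 was inside the Ncoa3 gene body, and none had an Ncoa3 start site as its nearest. Downstream of Ncoa3, 4 regions lay in introns of Sulf2, which encodes a heparan sulfate sulfatase. Ncoa3_6 (chr2:165978593-165979262) scored 520 and 277, and its midpoint was 996 bp from a Sulf2 start site and 85997 bp from the nearest Ncoa3 start site. Ncoa3_4 (chr2:165941414-165942172) scored 385 and 303 at 48863 bp, and Ncoa3_5 (chr2:165948190-165948895) scored 269 and 217 at 55612 bp. The one closest to an Ncoa3 start site was Ncoa3_3 (chr2:165915553-165916166), at 22929 bp, with scores of 223 and 96.0, the highest ratio between the replicates among the 19 regions (2.32).

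Upstream of Ncoa3, and named after their values were seen, Ncoa3_1 (chr2:165726588-165727089, scores 139 and 118) was at -91298 bp and 2322 bp from a start site of Zmynd8, and Ncoa3_2 (chr2:165739751-165740365, scores 153 and 128) was at -78078 bp. The distances to the 4 downstream regions were measured from a start site at 165892930 near the 3′ end of the gene. When start sites were limited to those of protein-coding transcripts, or to the most 5′ one, the Ncoa3 window held 3 shared regions. The Ncoa3 count thus rested on the reach of the window and on neighbouring genes: at a reach of 50 kb it was 2, and in the gene body alone 0. With both lists limited to p-values of 1e-20 it was 3. In replicate 1, 2 further peaks were not shared, with scores of 95.1 and 86.4, the second in an exon of Sulf2.

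The PGC1 coactivators promote mitochondrial and oxidative gene programmes with several nuclear receptors. Ppargc1a (ENSMUSG00000029167, chr5:51845488-51958964, minus strand) had 1 peak, in replicate 1 alone (chr5:51986855-51987354), intergenic at -28140 bp, with a score of 132 and rank 5905. Its closest shared region was 937.1 kb from a start site. Ppargc1b (ENSMUSG00000033871, chr18:61457790-61560085, minus strand) differed from it in count, with 7 peaks in replicate 1, 8 in replicate 2 and 6 shared regions. Its 6 regions formed 2 groups, 3 in introns of the gene and 3 upstream, with 99608 bp between the groups. No region was within 20 kb of its start sites. At a reach of 50 kb or in the gene body alone Ppargc1b had 3 shared regions, and with both lists limited to p-values of 1e-20 also 3.

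Within the gene, Ppargc1b_1 (chr18:61502199-61502701) scored 414 and 327 at 57604 bp downstream of a start site. Ppargc1b_3 (chr18:61533269-61533819), the closest to a start site at 26510 bp, scored 117 and 103. Between them, Ppargc1b_2 (chr18:61516464-61516983, named after its values were seen) scored 261 and 149 at 43331 bp. Upstream, Ppargc1b_5 (chr18:61646740-61647183) had the highest replicate 1 score of the gene, 574 against 294 in replicate 2, at -86876 bp. Ppargc1b_4 (chr18:61632815-61633489) scored 405 and 264 at -73067 bp and was the one region of this gene with an ERE, with 1 mismatch. Ppargc1b_6 (chr18:61651325-61651777), also named after its values were seen, scored 137 and 88.9 at -91466 bp, the lowest replicate 2 score of the 19. No other protein-coding gene had a start site in the Ppargc1b window. Of protein-coding genes, Ppargc1b itself was the nearest to 3 of the 6 regions. Counting all annotated genes, none of the 6 was nearest to Ppargc1b, and start sites of AC116595.1, of a U6 gene or of Arhgef37 lay closer.

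Crebbp (ENSMUSG00000022521, chr16:4084048-4213404, minus strand) and Ep300 (ENSMUSG00000055024, chr15:81415781-81482507, plus strand) encode the acetyltransferases CBP and p300, and neither had a peak in either list. Their windows measured 229 kb and 201 kb, and 62.2% and 62.7% of protein-coding genes with windows of similar length had no shared region. The closest shared region to a Crebbp start site was at -102932 bp, with scores of 125 and 85.2. For Ep300 it was at -153852 bp, with scores of 125 and 98.7. With the 200 kb reach, each gene had 2 shared regions, and 6 of the 9 genes had at least 1, beside 56.2% of protein-coding genes. At either reach, the share over protein-coding genes lay within the 95% interval of the share of the 9 genes.

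The peaks at these genes were called in both replicates about as often as peaks in general. Of the 28 replicate 1 peaks, 19 (67.9%, 95% interval 47.6 to 84.1%) were shared, against 64.9% of the whole list. Of the 22 replicate 2 peaks, 19 (86.4%, 65.1 to 97.1%) were shared, against 90.6%. The 9 unshared replicate 1 peaks had scores of 81.8 to 184 with a median of 95.1, below the median of 261 for the 19 shared ones. In replicate 2 the 3 unshared peaks had scores of 80.5, 83.1 and 95.0. Unshared peaks were thus mostly close to the limit of the lists.

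All 19 shared regions scored higher in replicate 1, against 80.2% of all shared regions, and no interval was computed for this share. The ratio of the scores ran from 1.12 to 2.32 with a median of 1.43, against a median of 1.31 over all shared regions. A peak's score rises with the depth and enrichment of its library as well as with binding, so the difference between the lists was not read as a difference in binding. By the lower of the 2 scores, the median was 168 for the 19 regions and 168 for all shared regions. The median lower score was 168 at Nrip1, 172 at Ncoa3 and 206 at Ppargc1b. The genes thus had similar typical scores, and Nrip1 differed by Nrip1_4 and Nrip1_5, whose lower scores of 1304 and 757 were above the highest at Ncoa3 (303) and Ppargc1b (327).

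**Figure D3:**
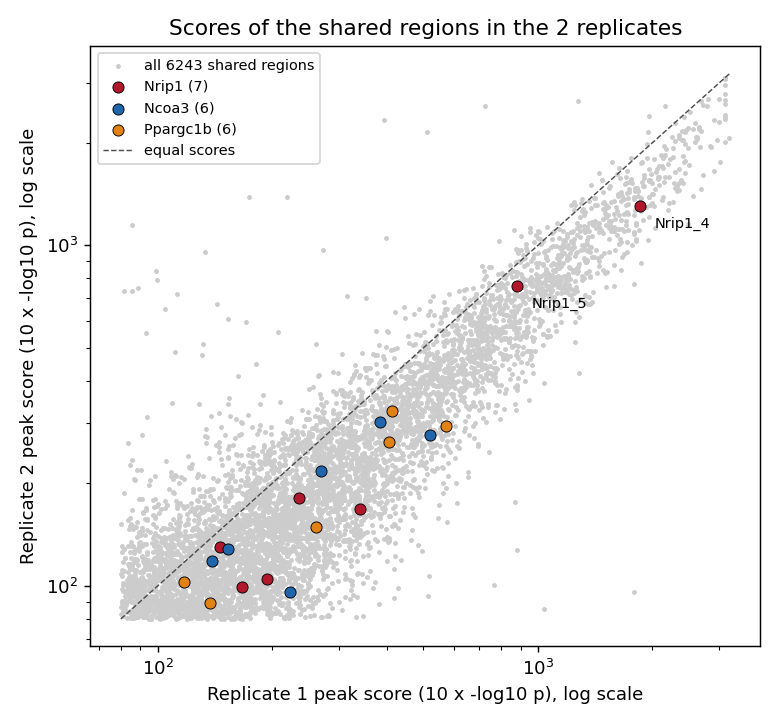
Peak score in replicate 1 (x axis) and replicate 2 (y axis), both −log10 of p multiplied by 10 and on log scales, for the 19 shared regions of the coregulator genes (coloured) and all 6243 shared regions on assembled chromosomes (grey). All coloured points lie below the dashed line of equal scores, and Nrip1_4 and Nrip1_5 are the highest of them in both replicates.

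The distance to the nearest start site of the assigned gene had a median of 58.7 kb, against 48.3 kb over all pairs of a protein-coding gene and a shared region in its window. More than 20 kb away were 16 of the 19 regions (84.2%, 95% interval 60.4 to 96.6%), against 76.8% of all pairs. Upstream of the nearest start site lay 7 regions and downstream 12. The proximal class held 1 of 19 (5.26%, 0.133 to 26.0%), against 2.15% of all pairs. By protein-coding gene models, 10 of the 19 midpoints were intronic (52.6%, 28.9 to 75.6%; all shared regions 42.8%) and 9 were intergenic (47.4%; all 53.3%). None was exonic (0 of 19, which allows a share of up to 17.6% by the exact interval), beside 3.89% of all shared regions. The shares given beside a value over all pairs or all shared regions did not differ from it beyond the counting error of 19 regions. No such value was computed for the upstream and downstream counts. Of the 10 intronic regions, 6 were in their own gene and 4 in Sulf2.

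The ERE, with up to 1 mismatch, was about as frequent at the members as over all shared regions. With up to 1 mismatch it was in 5 of the 19 regions (26.3%, 9.15 to 51.2%), against 31.1% of all shared regions. In windows of the same length 5 kb to either side that held no peak, 1.10% had one over all shared regions, and 2 of 35 (5.71%) did around the members. Nrip1 had 3 of the 5 EREs, and Ncoa3 and Ppargc1b had 1 each. The perfect ERE of Nrip1_5 was the only one among the 19 (5.26%), beside 6.60% of all shared regions. Over all shared regions the median lower score was 340 with no mismatch, 224 with 1 and 168 with 2. The scores of Nrip1_4, with 1 mismatch, were above those of Nrip1_5 with none, so at this gene the order of the scores was not the order of the mismatches.

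The other motifs searched, on both strands and without mismatch, were AP1 (TGAGTCA or TGACTCA), SF1 (CAAGGTCA), PAX2 (GTCACG) and FOXA1 (TATTTAC or TGTTTAC). AP1 was in 6 of the 19 regions (31.6%, 12.6 to 56.6%), 2 at each of Nrip1, Ncoa3 and Ppargc1b, against 16.7% of all shared regions and 7.11% of the flanking windows. None of these 6 regions had an ERE with up to 1 mismatch, which 31.1% of all shared regions had. The share among all shared regions with AP1 is not given here, so no relation between these motifs is read from this count. SF1 was in 2 (10.5%, 1.30 to 33.1%), Nrip1_3 and Nrip1_4, against 9.35%, and in Nrip1_4 its bases overlap the ERE. PAX2 was in 2, Ncoa3_4 and Ppargc1b_6, against 9.16%, and in Ppargc1b_6 1 of its 2 matches overlaps the AP1 match. FOXA1 was in 0 of 19, which allows a share of up to 17.6%, beside 14.0% of all shared regions and 10.7% of the flanking windows. None of the 5 motifs was found in 7 regions (36.8%, 16.3 to 61.6%), against 41.0%. With 19 regions each of these shares lay within its counting error of the share over all shared regions. A match is a description of the sequence and not evidence of the factor.

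**Figure D4:**
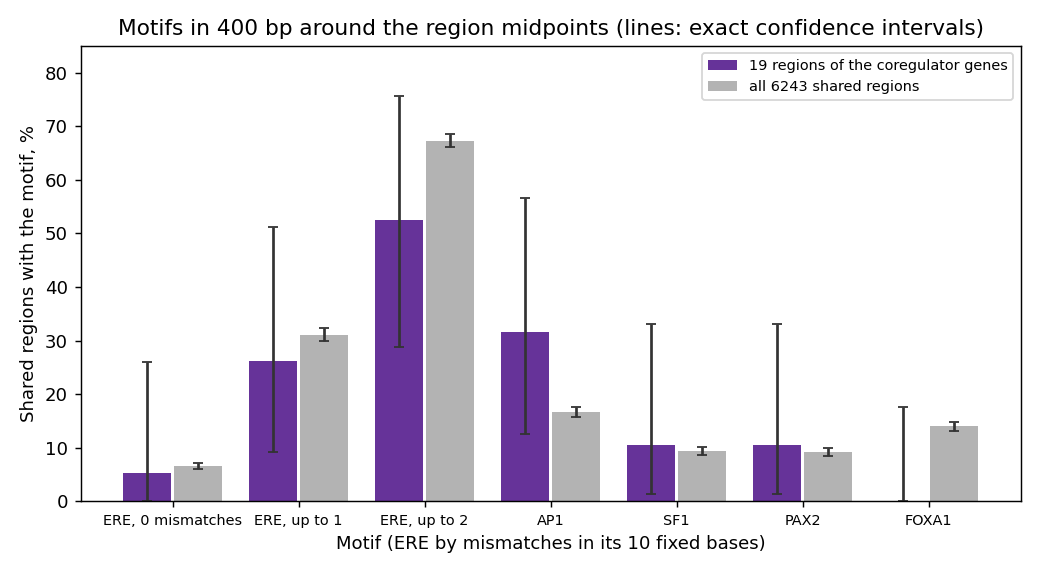
Percentage of regions with each motif (y axis, motifs on the x axis) for the 19 regions of the coregulator genes and all 6243 shared regions, with exact 95% intervals as lines, up to 17.6% for FOXA1 at 0 of 19. The intervals of the 19 regions hold the value over all shared regions for every motif shown.

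The base composition of the 19 windows was also near that of the rest, with a median GC content of 51.2% (43.2 to 59.2%) against 48.0%. The window with the highest GC content, 59.2%, was that of Nrip1_5 at the start site. RefSeq promoter sequences (GRCm38.p6, 250 bases before to 50 after a gene start) matched 6 of the 9 genes by symbol, Nrip1 and Ncor1 with 2 promoters and Ncoa1, Ppargc1a, Crebbp and Ep300 with 1. All 8 were found unchanged in NCBIM37. None held an ERE with up to 1 mismatch, which 0.877% of 32851 promoters did. Both Nrip1 promoters overlapped a peak in each replicate, and the other 6 overlapped none. The perfect ERE of Nrip1_5 lay between the 2 Nrip1 promoters, at chr16:76373245-76373544 and chr16:76374023-76374322, and in neither of them.

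Beside the 9 genes, 40 other nuclear receptor coregulators were counted in the same way, 17 corepressors and 23 coactivators. Of these, 22 (55.0%, 38.5 to 70.7%) had a shared region, beside 38.6% of protein-coding genes: 8 of the corepressors and 14 of the coactivators. The interval holds the share of protein-coding genes, though only just. These genes were not matched to others for window length. Of their 43 distinct shared regions, 3 were in more than 1 window, so the genes are not fully independent, as the interval takes them to be. There were 4 shared regions at each of Safb2 and Smarca4, and 3 at each of Ncoa7 and Pelp1. Of these 4 genes, only Ncoa7, a receptor-binding coactivator, held its own highest region in its body, with scores of 240 and 155 at 5832 bp. No peak in either list was found at 13 of the 40 genes, and 5 had peaks in replicate 1 only.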

How the data were processed

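The authors aligned 51-nt reads to mm9 with BWA, named in the submitters' processing notes, and called peaks with MACS (version not given in the sources used here) in each replicate, with the input as control and a p-value limit of 1e-08. The deposited score of each peak is −log10 of its p-value multiplied by 10, not scaled between the lists, and the replicates were not pooled. Read depths were not used here. The input entered only through peak calling, and regions on unplaced sequences were left out of the background for motifs and positions.

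Positions were taken from GENCODE vM1 on NCBIM37, in which every peak on an assembled chromosome ends inside that chromosome. Peaks sharing at least 1 bp were paired, and genes, windows and motifs were counted in Python 3.11.15 with numpy 2.4.6, scipy 1.17.1 and pysam 0.24.0, and samtools 1.23.1, after tests on simulated peaks. A window of similar length had 0.8 to 1.25 times the length of the gene's own. Alternatives were other reaches, start sites, p-values, overlaps, ERE rules and single replicates.

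The members and lists were chosen with earlier results of these data known. All 9 genes were named. For a gene with over 4 shared regions, the text names the 3 with the highest lower score, the one nearest to a start site and any with a perfect ERE, the rest being named after their values were seen. Unshared peaks were named for genes with no shared region, others after their values were seen, and of the other coregulators the 5 with the highest counts. An item under this rule is not reported here. Sequences came from regions named in the text, outside the Ppargc1b locus.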

Additional observations from a re-analysis of the deposited data

How the results depend on the processing

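The 19 shared regions became 8 within 50 kb or the gene body, 6 in the gene body alone, 4 by the nearest start site of any gene, 8 with both lists limited to p-values of 1e-20, and 40 at a reach of 200 kb, which was chosen after seeing the data. The 3 genes with a shared region became 1 (Nrip1) by the nearest start site, 2 in the gene body alone and 6 at 200 kb. When a replicate was left out, genes with any peak in the remaining list were counted. These were 3 with replicate 2 alone (40.7% of protein-coding genes) and 6 with replicate 1 alone (50.1%). The 22 other coregulators with a shared region became 13 within 50 kb, 9 in the gene body and 11 at 1e-20. At 1e-20, with 8 shared regions, 100% of replicate 2 peaks at the 9 genes were shared, in place of 86.4%. For replicate 1 the share was 66.7%, in place of 67.9%, and the shares over all peaks at this limit were not computed. The share of regions with an ERE was 5.26% with no mismatch allowed, against 6.60% of all shared regions. With 2 allowed it was 52.6% (28.9 to 75.6%), against 67.3%, which was lower but not beyond the counting error. The best match had 4 mismatches in 21.1% of the 19 regions and in 4.89% of all, and no interval was computed for this share. The changes above follow from wider or narrower rules. The 3 counts stayed within 1.5 times with a p-value of 1e-10 and with start sites of protein-coding transcripts or the most 5′ one. With reciprocal overlap of 50% or midpoints within 100 bp, the number of shared regions did so too, and the shares of shared peaks stayed within their intervals. The ERE share stayed within its interval in a 200 bp window or the whole region. Of the single genes, Ncoa3 went from 6 to 3 shared regions under both of the other choices of start sites. No paired analysis was possible because there was 1 group of ChIP replicates. With 19 regions in 3 loci, shares have wide intervals, regions of one locus are not independent, and assignment by distance does not show which gene a region acts on. A peak missing from one list was not shown to be unbound in that replicate, since signal under the limit was not analysed here.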

Other observations

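Some of the other coregulators had a shared region that lay in an intron of another gene or between genes. The region counted for Kat2a, an acetyltransferase gene, scored 1613 in replicate 1 and 1615 in replicate 2, with an ERE of 1 mismatch, and lay in an intron of Stat5b at -87092 bp from a Kat2a start site. The region of Ctbp1 (682 and 479, with an ERE of 1 mismatch) lay in an intron of Spon2, and that of Arid1a (424 and 401) in an intron of Zdhhc18. The highest regions of Trim24 (721 and 598, -45211 bp) and Rcor1 (697 and 258, -46965 bp) were intergenic, and that of Rcor1 had an ERE of 1 mismatch.

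Other genes held their highest region in their own body. The region of Pprc1, the gene of a PGC1-related coactivator, scored 836 and 530 at 447 bp from a Pprc1 start site, with an ERE of 1 mismatch. A start site of another gene lay closer to this region. Kat2b, a histone acetyltransferase gene, had 2 shared regions, both in its body, the higher one scoring 572 and 528 with an ERE of 1 mismatch. Carm1, an arginine methyltransferase gene, had 2 in its body, the higher one scoring 243 and 129. All the genes in these 2 paragraphs were named after their values were seen.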
